A study of Rattus norvegicus with 12 samples.

Results

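The genes described here are 8 enzymes of cholesterol synthesis, Hmgcs1, Fdps, Fdft1, Sqle, Lss, Cyp51, Msmo1 and Dhcr7, measured by bulk RNA-seq in cultured rat oligodendrocyte precursor cells (OPCs). They were taken by symbol from a table of 30562 gene rows, in which each symbol had 1 row, and all 8 were among the 8938 genes whose level in CPM, reads scaled to the size of the library, exceeded 10 in at least 1 library. The OPCs came from the cerebral cortex of wild-type P1 or P2 Sprague-Dawley rats, were shaken off mixed glial cultures and were grown with FGF-2 and PDGF-AA. Mild-hypo-OPCs (6 libraries) had been exposed to an inspired oxygen fraction of 5% for 6 hours according to the labels, whereas the study's methods give the mild exposure in days. Standard OPCs (6 libraries) are labelled as kept in room air, and no oxygen fraction is given for them. The labels do not say that the libraries of a group came from separate cultures, and the study's legend gives fewer replicates per group than were deposited. P-values therefore measure the spread between these libraries, which may be technical. The comparison asked which transcripts differed after mild hypoxic preconditioning.

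Cholesterol is built from acetyl-CoA, first through the mevalonate steps to farnesyl diphosphate, then through squalene to lanosterol, and finally by demethylation and reduction of the sterol rings. The genes of the pathway are classic targets of the transcription factor SREBP2, which is released from the endoplasmic reticulum when sterols are low. Oligodendrocytes are known for a high demand for cholesterol because it is a main lipid of myelin. Sqle, Cyp51 and Msmo1 encode enzymes that use molecular oxygen, as does Sc5d among the other enzymes of the pathway.

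The libraries of both groups differed in depth. Totals per library were 4111669 to 9022324 counts for mild-hypo-OPCs, against 1356079 to 2797513 counts for standard OPCs, without overlap, so condition and depth cannot be told apart. TMM scaling factors, which set the library sizes used for CPM, also separated the groups (1.08 to 1.23 against 0.809 to 0.945). All 7 OPC markers passed the filter, but so did 6 of 7 myelinating oligodendrocyte markers and 6 of 7 astrocyte markers. Passing the filter therefore does not by itself identify the cells. The summed level of the OPC markers was 3677 to 4272 CPM in mild-hypo-OPCs against 3050 to 3789 CPM in standard OPCs. Of these markers 1 was called, Gpr17, which marks committed precursors and rose by 0.45 on the log2 scale (edgeR adjusted p = 0.000842). Pdgfra, the receptor for PDGF-AA, stood at 236 ± 26.8 CPM (SD, n = 6) after mild hypoxia and at 229 ± 33.8 CPM (n = 6) without it. The cultures also held transcripts of more mature cells. The summed level of 7 myelinating oligodendrocyte markers was 9545 to 10990 CPM in mild-hypo-OPCs against 6477 to 9790 CPM in standard OPCs. Of the tested markers, 1 of 7 for OPCs and 3 of 6 for myelinating cells were called higher, beside 7% of all genes.

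Together the 8 enzymes took 0.314% to 0.382% of the counts of a mild-hypo-OPC library and 0.261% to 0.343% of those of a standard OPC library. Each single value rested on 175 to 8606 reads. On the CPM scale their sum was 2917 to 3217 in mild-hypo-OPCs against 3250 to 3671 in standard OPCs, so the direction of the summed level depended on the scaling. In edgeR's quasi-likelihood test, 2 of the 8 enzymes fell in mild-hypo-OPCs, Fdps and Msmo1, and 0 rose. Across all 8938 genes the same test called 17% lower and 7% higher. The median log2 fold change (mild-hypo-OPC over standard OPC) of the 8 enzymes was -0.10, beside -0.00306 for all genes tested. At an unadjusted p under 0.05, again 2 of the 8 passed, compared with 36.3% of all genes.

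**Figure D1:**
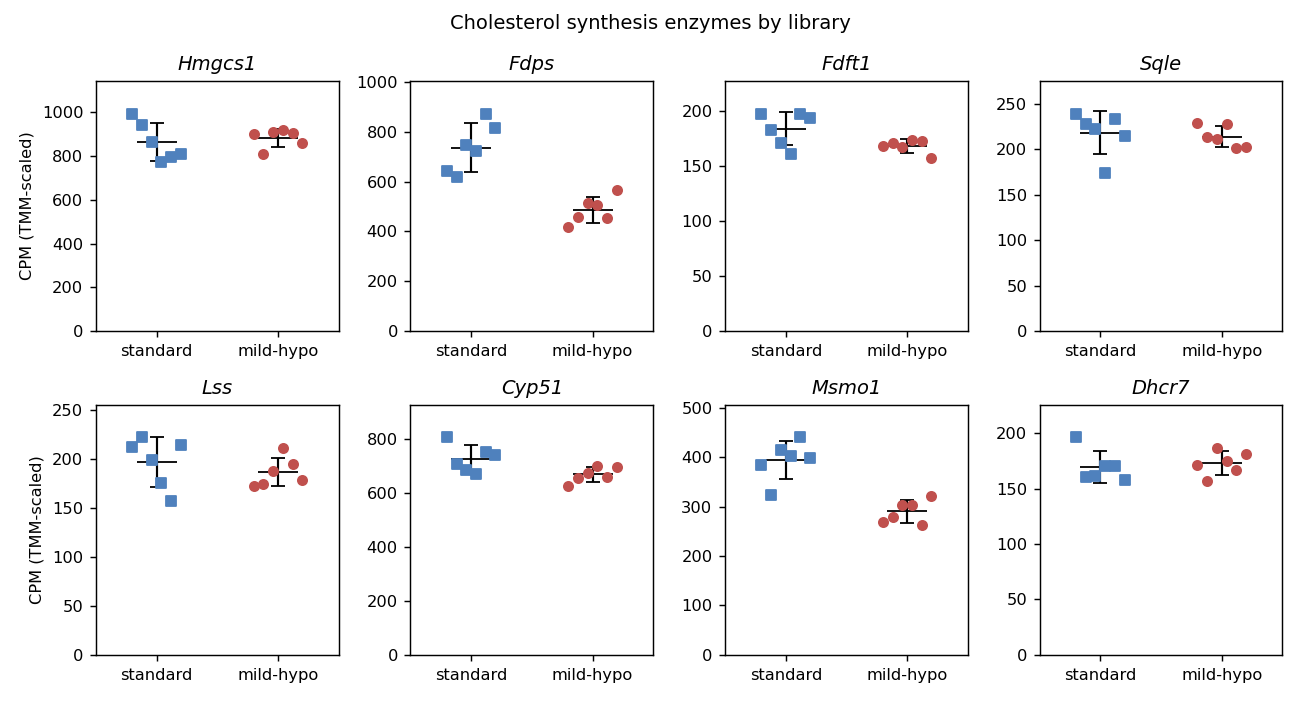
Level of each of the 8 enzymes in CPM (TMM-scaled, axes from 0) in the 6 standard OPC libraries (blue squares) and the 6 mild-hypo-OPC libraries (red circles), with the mean and SD of each group as black bars. The mild-hypo-OPC libraries lie wholly below the standard OPC libraries for Fdps (418 to 567 against 619 to 872 CPM) and Msmo1 (263 to 322 against 324 to 440 CPM), and the groups overlap for the other 6.

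The first of these enzymes in pathway order is Hmgcs1 (ENSRNOG00000016552), the cytosolic synthase that makes HMG-CoA. Its level ran from 807 CPM through a median of 900 to 917 CPM in mild-hypo-OPCs, and from 772 CPM through 835 to 992 CPM in standard OPCs. The mild-hypo-OPC range lay wholly inside that of the standard OPCs, and the log2 fold change was 0.03 (SE 0.08, 95% interval -0.14 to 0.20, edgeR adjusted p = 0.819).

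Fdps (ENSRNOG00000043377) makes farnesyl diphosphate, the last product before the pathway commits to sterols and the branch point to prenylation and dolichol. In mild-hypo-OPCs its lowest, median and highest levels were 418, 482 and 567 CPM, and in standard OPCs they were 619, 735 and 872 CPM. Every mild-hypo-OPC library lay below every standard OPC library, a pattern found for 5.4% of all genes tested, while 2.94% of genes showed the opposite pattern. Fdps fell by 0.60 on the log2 scale (SE 0.10, 95% interval -0.80 to -0.39, edgeR adjusted p = 0.000283), from a mean of 737 ± 97.9 CPM (n = 6) to 487 ± 53.3 CPM (n = 6). RefSeq lists 5 pseudogenes named after Fdps in the rat, of which 0 has a row in the count table, so reads shared with such copies could be split or assigned in ways that the table does not show.

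Fdft1 (ENSRNOG00000021314), squalene synthase, joins 2 farnesyl diphosphates and takes the first step that is particular to sterols. Its levels were 157, 169 and 173 CPM (lowest, median, highest) in mild-hypo-OPCs and 161, 188 and 197 CPM in standard OPCs. The groups overlapped only at the low end of the standard OPCs, and the log2 fold change of -0.13 did not pass the test (SE 0.07, 95% interval -0.28 to 0.02, edgeR adjusted p = 0.210).

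Sqle (ENSRNOG00000009550), squalene epoxidase, inserts the first oxygen of the pathway. It stood at 201, 212 and 228 CPM in mild-hypo-OPCs and at 174, 225 and 239 CPM in standard OPCs. The mild-hypo-OPC values again lay inside the standard OPC range, with a log2 fold change of -0.03 (SE 0.08, 95% interval -0.20 to 0.13, edgeR adjusted p = 0.793).

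Lss (ENSRNOG00000054549), lanosterol synthase, closes the squalene epoxide into the first sterol. Its lowest, median and highest levels were 173, 183 and 211 CPM in mild-hypo-OPCs and 157, 206 and 222 CPM in standard OPCs. The mild-hypo-OPC range lay inside that of standard OPCs, and the log2 fold change was -0.08 (SE 0.09, 95% interval -0.27 to 0.11, edgeR adjusted p = 0.550).

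Cyp51 (ENSRNOG00000007234) encodes the cytochrome P450 that removes the 14-alpha methyl group of lanosterol with molecular oxygen. Levels of 626, 669 and 702 CPM in mild-hypo-OPCs compared with 673, 726 and 808 CPM in standard OPCs. The upper mild-hypo-OPC libraries reached into the standard OPC range, and the log2 fold change of -0.12 did not pass the test (SE 0.07, 95% interval -0.27 to 0.03, edgeR adjusted p = 0.241).

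Msmo1 (ENSRNOG00000032297), the methylsterol monooxygenase that begins removal of the methyl groups at carbon 4, also consumes oxygen. Its levels were 263, 291 and 322 CPM in mild-hypo-OPCs and 324, 401 and 440 CPM in standard OPCs. Again each mild-hypo-OPC library lay below each standard OPC library, but the nearest libraries were close, at 321.9 CPM in mild-hypo-OPC replicate 6 and 323.7 CPM in standard OPC replicate 2. Msmo1 fell by 0.44 on the log2 scale (SE 0.08, 95% interval -0.61 to -0.27, edgeR adjusted p = 0.000860), from 394 ± 39.0 CPM (n = 6) to 290 ± 23.1 CPM (n = 6).

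Dhcr7 (ENSRNOG00000020776), the last reductase of one branch, turns 7-dehydrocholesterol into cholesterol. It ranged over 156, 173 and 186 CPM in mild-hypo-OPCs and 158, 166 and 196 CPM in standard OPCs. Neither group stood apart, with a log2 fold change of 0.03 (SE 0.08, 95% interval -0.13 to 0.19, edgeR adjusted p = 0.840). Among the 3 members that use oxygen, 1 fell and 2 did not pass the test, and among the 5 that do not use it, 1 fell and 4 did not pass. The share of all genes called lower was 17%.

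A ratio of 2 genes within a library does not depend on its scaling factor, although it can still vary with depth. Of the 28 pairs of the 8 enzymes, 2 had count ratios that separated the groups. The ratio of Fdps to Dhcr7 was 2.44 to 3.13 in mild-hypo-OPCs against 3.27 to 5.17 in standard OPCs, and that of Msmo1 to Dhcr7 was 1.57 to 1.78 against 1.96 to 2.58. The ratio of Fdps to Cyp51 overlapped by a narrow margin (0.668 to 0.811 against 0.795 to 1.16). Of the 15 pairs with neither Fdps nor Msmo1, 0 separated, and the ratio of Fdps to Msmo1 overlapped too, at 1.55 to 1.76 in mild-hypo-OPCs against 1.67 to 2.05 in standard OPCs. Of the 13 pairs with Fdps or Msmo1, 2 separated, both with Dhcr7 as the other gene. Among single genes tested, 5.4% lay wholly below and 2.94% wholly above in mild-hypo-OPCs. The share of separated ratios among pairs of other genes was not computed, so whether 2 of 28 is unusual is not known. The pairs share genes and libraries and are a description.

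The libraries did not rank alike for all members. Standard OPC replicate 1 was the highest of all 12 libraries for 5 of the 8 enzymes, but Fdps and Msmo1 were both highest in standard OPC replicate 5 and lowest, among standard OPCs, in replicate 2. Within mild-hypo-OPCs both were highest in replicate 6. For Fdps the 2 deepest standard OPC libraries were also the 2 lowest, at 641.6 and 619.5 CPM, while the other 4 held 722 to 872 CPM. Hmgcs1 showed the opposite order in standard OPCs, with 992.2 and 942.2 CPM in the 2 deepest libraries. A fit with depth as a covariate and one on libraries thinned to equal totals are given below.

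**Figure D2:**
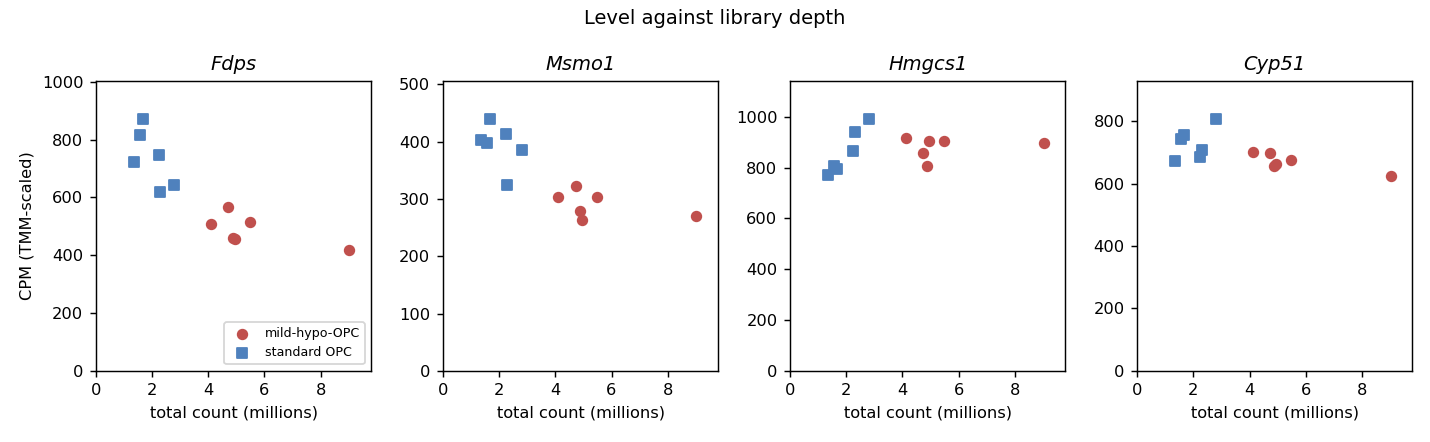
Level in CPM (TMM-scaled, axes from 0) of Fdps, Msmo1, Hmgcs1 and Cyp51 against the total count of each library, for 6 mild-hypo-OPC libraries (red circles) and 6 standard OPC libraries (blue squares). All mild-hypo-OPC libraries are deeper than all standard OPC libraries, and Fdps is lower in the deeper standard OPC libraries whereas Hmgcs1 is higher in them.

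After subtraction of the group means, each member was compared with the average of the other 7 over the 12 libraries, as a description in which the points share library and depth. Cyp51 followed the others most closely (Pearson r = 0.858), followed by Sqle (0.494), Fdft1 (0.483), Dhcr7 (0.459) and Hmgcs1 (0.377). Lss (0.145), Msmo1 (0.083) and Fdps (0.022) had little relation to the average of the other 7. Between single members, r ran from -0.553 through a median of 0.256 to 0.867 over the 28 pairs. The highest was that of Fdps with Msmo1, so these 2 varied together. The genes outside the lists most like the mean of the 8 enzymes, of 8846 compared, were Slc2a1, the glucose transporter GLUT1 (r = 0.894), Rbm14 (0.889), Smg9 (0.858), Qpctl (0.853), Gpbp1l1 (0.852), Enpp6, a marker of newly forming oligodendrocytes (0.845), Pja1 (0.843) and Ttc13 (0.840).

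A further 12 enzymes of the pathway were compared, all of which passed the filter. Of these, 7 fell, 0 rose and 5 did not pass the test, with a median log2 fold change of -0.30, while 17% of all genes were called lower. The count of 7 was not stable, as it was 4 without mild-hypo-OPC replicate 1, 2 or 5, 4 with upper-quartile factors and 3 after thinning. The share of all genes called lower was then 13.1% to 13.8%, 14% and 6.57%, respectively. Of these 20 enzymes together, 9 fell and 11 did not pass. The enzymes that fell lay mostly before squalene, where 6 of 7 fell (median -0.51), while from squalene synthase onward 3 of 13 fell (median -0.13). Beside these shares, 17% of all genes were called lower. This contrast of 2 stretches of the pathway was read off the same values and was not tested, and the enzymes that fell also have short gene spans, as given below.

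**Figure D3:**
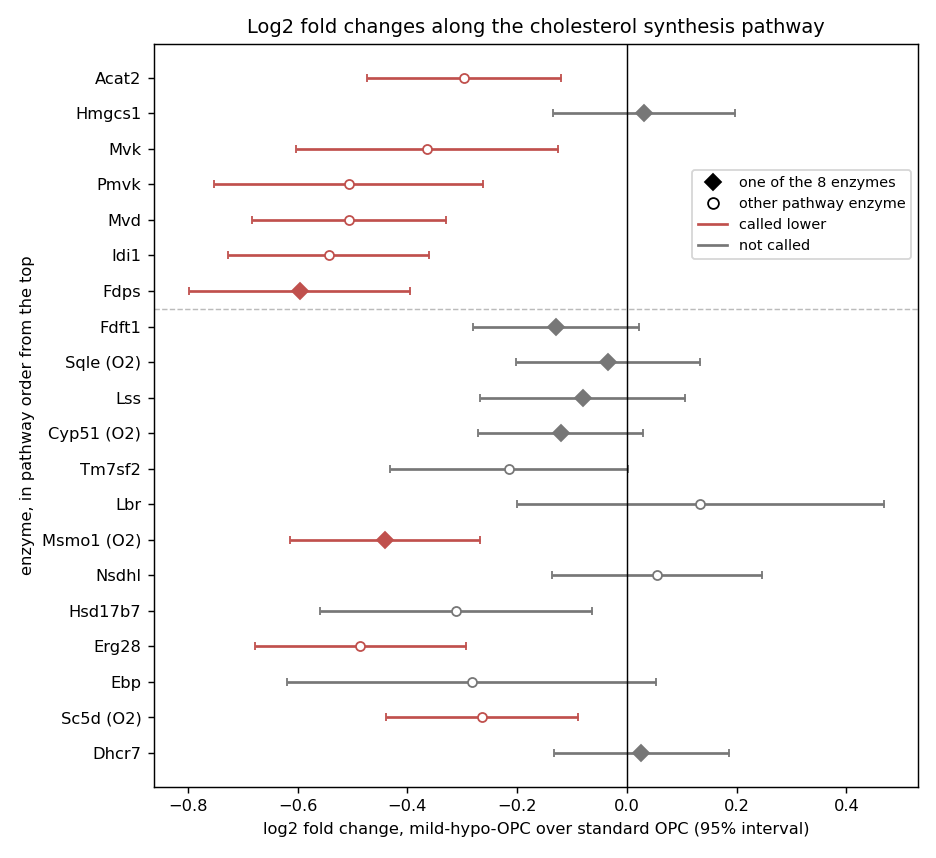
Log2 fold change of mild-hypo-OPCs over standard OPCs with its 95% interval for 20 cholesterol synthesis enzymes in pathway order from the top, with the 8 described enzymes as filled diamonds, the other 12 as open circles, O2 marking the enzymes that use oxygen, red marking an adjusted p under 0.05 and a dashed line dividing the steps before and from squalene synthase. The run from Mvk to Fdps lies to the left of 0, between -0.36 and -0.60, and most later enzymes cross it.

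In the mevalonate steps, Idi1, which isomerises isopentenyl diphosphate just upstream of Fdps, fell by 0.54 on the log2 scale (SE 0.09, edgeR adjusted p = 0.000283). Its level was 320 ± 22.4 CPM (n = 6) in mild-hypo-OPCs, against 466 ± 60.6 CPM (n = 6) in standard OPCs, without overlap. Mvd, the decarboxylase before it, fell by 0.51 (SE 0.08, adjusted p = 0.000337) from 133 ± 16.1 to 93.9 ± 6.09 CPM, also without overlap. The kinases Pmvk (-0.51, adjusted p = 0.00406) and Mvk (-0.36, adjusted p = 0.0252) were called lower with overlapping libraries. Acat2, the thiolase at the start of the pathway, fell by 0.30 (adjusted p = 0.0148).

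Among the sterol steps, Erg28, a scaffold of the demethylation complex in which Msmo1 works, fell by 0.49 (SE 0.09, edgeR adjusted p = 0.000891) without overlap. Sc5d, the oxygen-using desaturase, fell by 0.26 (adjusted p = 0.0269) with overlap. Nsdhl (0.06) and Hsd17b7 (-0.31, adjusted p = 0.0621), which act with Msmo1, did not pass, nor did Tm7sf2 (-0.21), Lbr (0.13) and Ebp (-0.28). Of the 4 enzymes that use oxygen, 2 fell (median -0.19), and of the 16 that do not, 7 fell (median -0.29). Beside these counts, 17% of all genes were called lower, and the 2 sets were not tested against each other. Leaving out single libraries ended the calls of Mvk and Sc5d in 6 of 12 fits each, and that of Acat2 in 3.

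For the regulators of SREBP2, 1 of 9 tested genes rose and 1 fell, beside 7% and 17% of all genes. Insig1, which retains the SREBP2 complex in the endoplasmic reticulum and is itself an SREBP target, ranged over 244 to 322 CPM in mild-hypo-OPCs against 416 to 566 CPM in standard OPCs. It fell by 0.65 on the log2 scale (SE 0.09, 95% interval -0.84 to -0.47, edgeR adjusted p = 0.000143). Scap, the escort of SREBP2, rose by 0.29 (SE 0.08, adjusted p = 0.0129), from 54.7 ± 4.55 CPM to 67.0 ± 2.77 CPM. Srebf2, the gene of SREBP2 itself, had a log2 fold change of 0.16 (95% interval -0.01 to 0.34, adjusted p = 0.174). Insig2 stayed below the filter, with 21 to 48 reads in mild-hypo-OPCs against 2 to 12 in standard OPCs. These reads are not scaled for depth, and every mild-hypo-OPC library is deeper, so they do not compare the groups.

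Genes of sterol uptake and transport moved both ways, with 4 higher and 3 lower of 11 tested, beside 7% and 17% of all genes. Lrp1, a lipoprotein receptor, fell by 0.68 (edgeR adjusted p = 0.000558), and Stard4, a carrier of free sterol, fell by 0.59 (adjusted p = 0.00532). Lipa, the lysosomal lipase that frees cholesterol from its esters, rose by 0.46 (adjusted p = 0.00204), and Soat1, which forms such esters, rose by 0.36 (adjusted p = 0.00305). In the efflux list 2 of 5 rose and 0 fell, beside 7% and 17% of all genes, and 2 of 5 passed an unadjusted p under 0.05, beside 36.3%. Those that rose were the transporter Abca2 (0.36, adjusted p = 0.00899) and the lipocalin Apod (0.36, adjusted p = 0.00714), while Abca1 (-0.16, adjusted p = 0.598) and Apoe (0.05, adjusted p = 0.754) did not pass.

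The scaling of the libraries bears on each of these directions. With scaling by total count alone, the median change over the whole table moved from -0.00306 to 0.43 on the log2 scale, and 61.7% of genes were called higher and 4.53% lower. Fdps then had -0.15 (edgeR adjusted p = 0.226) and Msmo1 -0.00197 (adjusted p = 0.987), while the other 6 members were called higher with values from 0.31 for Fdft1 to 0.47 for Hmgcs1. Relative to the shift of 0.43, Fdps and Msmo1 lay lower and the other 6 near it, as they did under TMM. With log2 total count as a covariate, 0.481% of genes were called lower (43 genes) and 0 higher, with 705 at an unadjusted p under 0.05. Under that covariate 0 of the 8 enzymes was called, with Fdps at -0.17 (SE 0.18, adjusted p = 0.913) and Msmo1 at -0.22 (SE 0.17, adjusted p = 0.839). With every library thinned to the smallest total, Fdps fell by 0.61 (adjusted p = 0.00179) and Msmo1 by 0.38 (adjusted p = 0.0225).

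**Figure D4:**
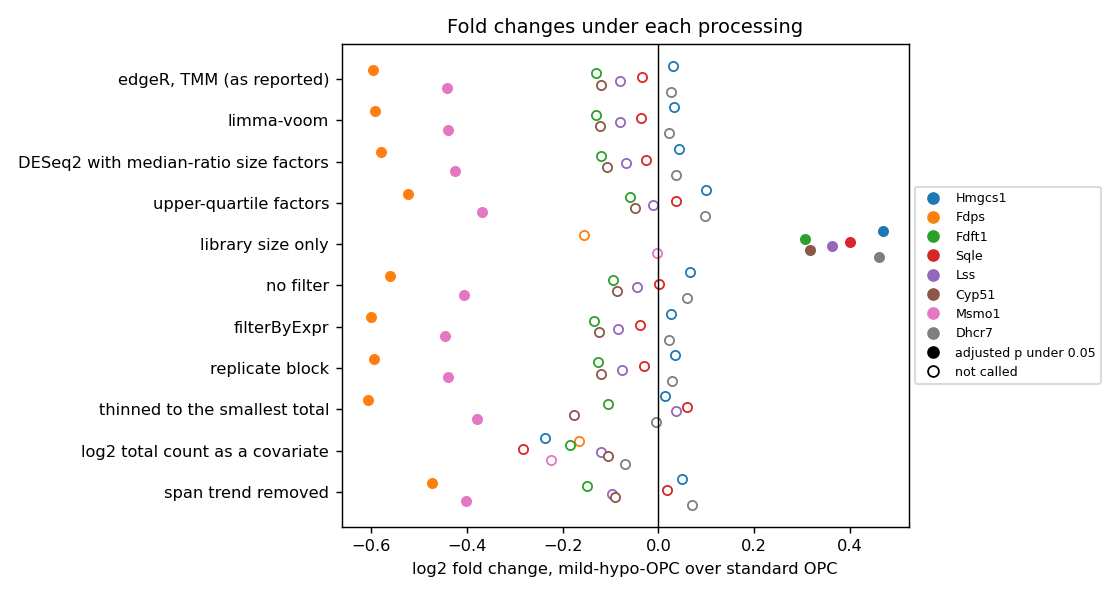
Log2 fold change of each of the 8 enzymes (colours) under edgeR with TMM and under 10 alternative ways of processing, with filled points for an adjusted p under 0.05 and open points otherwise. Fdps and Msmo1 are filled in every line except scaling by library size only and the fit with log2 total count as a covariate. They lie left of the other 6 in every line except that fit with the covariate.

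Log2 fold changes across all genes also moved with gene span, the length from start to end in RefSeq's GRCr8 annotation, which is not the assembly of the counts and gave a span for 95.55% of the genes tested. The median was -0.26 in the bin of shortest spans, of 5 bins with equal numbers of genes (37.2% called lower) and 0.06 in the bin of longest spans (5.56%). The bin that holds Fdps, Sqle, Dhcr7 and Msmo1 had a median of -0.05 and 21% called lower, and the one that holds Cyp51, Hmgcs1, Lss and Fdft1 had 0.02 and 11.4%. All 9 pathway enzymes that fell lie in the bins of the shortest and next shortest spans, with 1 of 3 enzymes in the first called lower, 8 of 10 in the second and 0 of 7 in the third. After the trend on span was removed, 14.5% of all genes were called lower and 9.59% higher, and Fdps (-0.47, edgeR adjusted p = 0.000194) and Msmo1 (-0.40, adjusted p = 0.000636) were still the only members called, and 6 of the 12 other enzymes were called. What lies behind the trend was not tested.

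**Figure D5:**
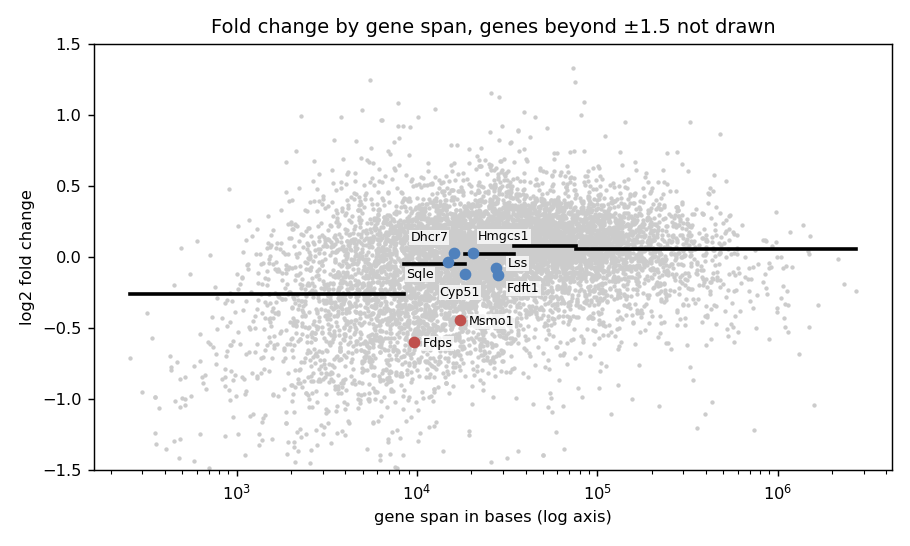
Log2 fold change of mild-hypo-OPCs over standard OPCs against gene span in bases (log axis) for all genes tested with a span (grey), with the median of each of 5 bins of genes by span as a black line. Fdps and Msmo1 (red, called lower) lie below the line of their bin (-0.05), and the other 6 enzymes (blue, not called) lie near theirs.

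Markers of other cell types were also compared, beside 7% of all genes called higher. Summed CPM of 5 neuron markers was 125.5 to 143.7 in mild-hypo-OPCs against 70.55 to 109.7 in standard OPCs. Of 3 tested, 1 was higher, Tubb3, which made up much of that sum (means of 98.9 against 59.4 CPM). For 7 microglia markers the sums overlapped, at 32.66 to 45.32 against 12.76 to 32.94 (1 of 2 tested higher). Those of 7 astrocyte markers overlapped too, at 804.2 to 934.7 against 740.1 to 838.9 (2 of 6 tested higher). Of the mesenchymal and endothelial markers 0 passed the filter, with sums of 1.545 to 3.154 CPM against 0 to 1.513 CPM. The part of these cells, and of the myelinating markers, in the levels of Fdps and Msmo1 was not tested, and in bulk RNA fewer cells of a type and less RNA per cell cannot be told apart.

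The promoters of the members were compared because their genes share a regulator, and those of the members that fell are shown beside 2 that were not called. RefSeq gave the 250 bases before the annotated start for 6 of the 8 enzymes. Windows are in GRCr8 and are written 5′ to 3′ on the gene's own strand, with CCAAT, the motif bound by NF-Y, or its reverse complement ATTGG in capitals. The window of Fdps is chr2:176804817-176805066 on the minus strand, that of Msmo1 chr16:29746863-29747112 on the plus strand, that of Hmgcs1 chr2:53382054-53382303 on the plus strand and that of Cyp51 chr4:30991443-30991692 on the plus strand.
Fdps: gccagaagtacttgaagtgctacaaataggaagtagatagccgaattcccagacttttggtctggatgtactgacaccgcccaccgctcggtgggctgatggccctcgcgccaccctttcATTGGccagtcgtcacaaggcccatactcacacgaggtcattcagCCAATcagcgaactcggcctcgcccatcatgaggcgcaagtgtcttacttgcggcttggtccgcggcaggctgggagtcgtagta
Msmo1: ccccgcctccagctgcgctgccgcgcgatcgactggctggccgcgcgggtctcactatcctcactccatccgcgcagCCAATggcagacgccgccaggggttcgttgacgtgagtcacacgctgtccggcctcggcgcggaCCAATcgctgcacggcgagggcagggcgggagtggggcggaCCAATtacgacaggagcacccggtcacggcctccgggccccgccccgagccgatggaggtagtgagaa
Hmgcs1: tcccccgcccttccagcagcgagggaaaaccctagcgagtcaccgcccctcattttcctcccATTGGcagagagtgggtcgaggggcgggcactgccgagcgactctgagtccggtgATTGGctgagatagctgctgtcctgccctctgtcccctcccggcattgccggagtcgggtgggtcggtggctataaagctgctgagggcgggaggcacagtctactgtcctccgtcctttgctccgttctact
Cyp51: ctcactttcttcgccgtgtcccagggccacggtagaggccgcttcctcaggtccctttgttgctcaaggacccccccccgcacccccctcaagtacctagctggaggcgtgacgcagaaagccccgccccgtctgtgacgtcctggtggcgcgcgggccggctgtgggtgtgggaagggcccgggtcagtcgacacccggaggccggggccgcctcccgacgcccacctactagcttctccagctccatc

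Both strands were searched for each motif. CCAAT was found in the windows of Fdps (2 matches), Msmo1 (3), Hmgcs1 (2) and Lss (1) and not in those of Cyp51 and Dhcr7, that is in 4 of 6 members and 13 of 17 pathway enzymes with a window (76.5%), compared with 34% of all 33469 promoters of the same length. In the printed windows the matches begin 130 and 85 bases before the start in Fdps, 173, 109 and 68 bases before it in Msmo1, and 188 and 133 bases before it in Hmgcs1. The GC box GGGCGG, to which Sp1 binds, was in 6 of 6 members and 15 of 17 enzymes (88.2%), compared with 30.5% of all promoters. All promoters here include those of genes below the filter, which every one of the enzymes passed. The shares therefore compare unlike sets, and whether the pathway differs from other expressed genes was not tested. The sterol element searched as TCACNCCAC was in 0 of 17 enzyme windows and in 0.974% of all promoters. No other form of the element was searched, so an element that differs from this pattern would be missed. The count therefore does not show that the windows lack a sterol element. No matches of different motifs overlapped in these windows. CCAAT did not divide the enzymes by their change, as 6 of 8 enzymes called lower and 7 of 9 not called held it. These matches describe letters in a window and no binding was measured.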

How the data were processed

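Bulk RNA-seq was measured in 6 mild-hypo-OPC and 6 standard OPC libraries, grouped by their labels. Strand-specific libraries were made from total RNA. The authors trimmed reads with Trimmomatic 0.36 (quality check with FastQC 0.11.9), aligned them with STAR 2.7.9a to the assembly mRatBN7.2, and used RSEM 1.3.3 for quantification. The deposited values are raw counts, whole numbers for each Ensembl gene, and how RSEM's estimates became whole numbers is not given in the sources used here. The table has 30562 genes and 12 library columns.

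The filter of the study was used, a CPM over 10 in 1 library or more, which left 8938 genes. TMM factors, glmQLFit and glmQLFTest of edgeR 4.0.16 (R 4.3.3) were run with condition as the only term on all genes kept, with Benjamini-Hochberg adjustment over all of them and a threshold of 0.05. The standard error follows from the quasi-likelihood F statistic. CPM values are TMM-scaled, and the study's own filter and scaling were followed, while its limma-voom fit was an alternative. Other alternatives were DESeq2 1.42.0, upper-quartile factors, library size only, no filter, filterByExpr, a replicate block, thinning, log2 total count as a covariate, removal of the span trend and leaving out each library. limma 3.58.1 was used, and scripts were tested on simulated counts. Figures used matplotlib 3.10.9.

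Within each group all 15 pairs of libraries varied beyond counting noise (chi-square over its degrees of freedom, 3.97 or more), so no library was taken for a second deposit of another, which leaves unknown whether they share a culture. Depth limits precision to the counts given with the results. No transcript lengths were used, so levels were not compared between genes. The members, the lists and the alternatives were chosen with earlier results of these data known. The genes named are the 8 enzymes, the 12 other synthesis enzymes, Srebf2, Scap, Insig1, Insig2, Abca1 and Apoe, up to 4 called genes with the largest change per further list, Mbp, and the 8 genes most like the mean of the members. Some genes of these lists are not reported here and are left out of the list counts. Pdgfra, Gpr17 and Tubb3 were named after their values were seen, and so were the library ranks and gene pairs described. Promoter sequences came from RefSeq (GRCr8).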

Additional observations from a re-analysis of the deposited data

Results flagged for a closer look

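In 6 of 72 sets, each made of 1 gene in the 6 libraries of 1 group, the extreme library lay farther from its neighbour than Dixon's 95% critical value allows, which chance gives for about 1 in 20 sets. Among the 8 enzymes, Fdft1 was low in mild-hypo-OPC replicate 6 (156.7 CPM, the next library at 167.4 CPM) and Dhcr7 was high in standard OPC replicate 1 (196.1 CPM, the next at 170.6 CPM). Acat2 was high in standard OPC replicate 5 (433.2 CPM, the next at 346.5 CPM). The deepest library, mild-hypo-OPC replicate 1, was low for Mvk (57.06 CPM, the next at 71.68 CPM) and for Insig1 (244 CPM, the next at 294.6 CPM). Apoe was high in mild-hypo-OPC replicate 2 (305.5 CPM, the next at 236 CPM). Without the library concerned, the calls of the 8 enzymes were the same. For the other flagged genes, over the 12 fits that each left out 1 library, Mvk lost its call in 6 and Acat2 in 3. Insig1 stayed called and Apoe stayed not called in these fits.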

How the results depend on the processing

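Fdps and Msmo1 were the members called lower, and the only ones called, under limma-voom, DESeq2, upper-quartile factors, no filter, filterByExpr, the replicate block, thinning and removal of the span trend, and in all 12 fits without 1 library (2 to 2 members called, Fdps -0.64 to -0.52, Msmo1 -0.49 to -0.38). By library size only 6 members were called, all higher, and 0 were called when log2 total count was a covariate. Of the other synthesis enzymes, 4 were called with upper-quartile factors, 2 by library size only (both higher), 3 after thinning and 0 with the covariate, compared with 7, and 4 to 8 without 1 library (4 without mild-hypo-OPC replicate 1, 2 or 5). Of the other sterol and lipid genes, 34 were called by library size only (all higher), 7 after thinning and 0 with the covariate, compared with 15, and 12 to 18 without 1 library. Over all genes, 61.7% were called higher and 4.53% lower by library size only, and 12.7% and 14% with upper-quartile factors. After thinning the shares were 1.73% and 6.57%, and with the covariate 0% and 0.481%, compared with 7% and 17%. The log2 fold change turned direction by library size only for Fdft1 0.31, Sqle 0.40, Lss 0.36, Cyp51 0.32, Acat2 0.14, Mvk 0.0755, Tm7sf2 0.22, Hsd17b7 0.12, Ebp 0.14, Sc5d 0.17, Abca1 0.27 and Fasn 0.17, with the covariate for Hmgcs1 -0.24, Dhcr7 -0.0706, Mvk 0.24, Tm7sf2 0.21, Nsdhl -0.19, Srebf2 -0.00154, Apoe -0.25 and Abca2 -0.00832, after thinning for Sqle 0.0595, Lss 0.0361, Dhcr7 -0.00526 and Lbr -0.0879, without a filter for Sqle 0.000331, with upper-quartile factors for Sqle 0.0357, and without the span trend for Sqle 0.019 and Tm7sf2 0.0245. Without 1 library it turned for Sqle (-0.0887 to 0.0127), Nsdhl (-0.0087 to 0.11), Abca1 (-0.28 to 0.0301) and Apoe (-0.00335 to 0.11). Fewer reads enter the thinned libraries, and depth separates the groups under the covariate, while the cause of the other changes was not tested. Same-numbered libraries correlated at -0.276 to 0.296 after the group means were removed, and 3 of 12 libraries correlated best with their own number. These values show no clear pairing by number but could miss a weak one, so whether the numbers pair the libraries stays unknown. With the replicate block 2 members, 7 other synthesis enzymes and 13 other sterol and lipid genes were called.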

Other observations

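Of 10 tested isoprenoid enzymes, which use the product of Fdps, 0 rose and 2 fell in edgeR, Fntb, a farnesyltransferase subunit (log2 fold change -0.60, adjusted p = 0.00149), and Rabggtb, a subunit of the enzyme that prenylates Rab proteins (-0.57, adjusted p = 0.00397). A share of 17% of all genes was called lower. At an unadjusted p under 0.05, 3 of the 10 passed, beside 36.3% of all genes. Fntb stood at 32.5 ± 2.58 CPM (n = 6) in mild-hypo-OPCs and 50.1 ± 10.4 CPM (n = 6) in standard OPCs. Of 13 fatty acid genes, 1 rose and 1 fell, beside 7% and 17% of all genes. Srebf1, the gene of the regulator SREBP1, rose by 0.46 (edgeR adjusted p = 0.0211). Fasn, fatty acid synthase, fell by 0.28 (adjusted p = 0.0399), a call lost in 10 of 12 fits without 1 library.

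The myelin gene Mbp had a log2 fold change of 0.29 (edgeR adjusted p = 0.0555). Its level was 7132 ± 454 CPM (n = 6) in mild-hypo-OPCs, against 5851 ± 950 CPM (n = 6) in standard OPCs, with overlapping libraries.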
